A study of Mus musculus with 9 samples.

Results

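miR-221 and miR-222 are made from neighbouring hairpins on the mouse X chromosome, and 3 of their mature products are described here, out of 1915 mature miRNA names in a table of small RNA reads from mouse milk fat. The 3 members, mmu-miR-221-3p, mmu-miR-221-5p and mmu-miR-222-3p, were taken by name. Each had 1 row in the table, and all 3 passed the filter on low counts that left 312 names for testing. The libraries came from the washed fat layer of milk of 9 primiparous ICR (CD1) dams on lactation day 10. The diets began at 4 weeks of age, 4 weeks ahead of mating, and went on until the milk was taken. Fat gave 10% of the energy of the control diet (5 dams, 3.85 kcal per g) and 60% of that of the high-fat diet (4 dams, 5.24 kcal per g). Sucrose was 7% of the energy in both diets. Each library is 1 dam, and dams were kept in same-diet pairs before mating, with cage mates not named in the sources used here.

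A miRNA hairpin is cut into a short duplex, and usually 1 strand, the guide, stays in the Argonaute protein while the other, the passenger, is degraded. The guide finds transcripts mainly through its seed, bases 2 to 8. miR-221-3p and miR-222-3p have the same seed and are known repressors of Cdkn1b, a brake on the cell cycle, of Kit, a growth factor receptor, and of Esr1, the oestrogen receptor. In breast tissue they are better known from basal-like than from luminal cells, and they are also abundant in blood vessels.

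The mature sequences from RefSeq (GRCm38.p6, 5′ to 3′) are shown with the seed in capitals, because the shared seed ties the cluster mates together and sets the 5p arm apart. miR-1928 is included as the only other mature miRNA in the RefSeq table with this seed.
mmu-miR-221-3p: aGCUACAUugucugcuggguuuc
mmu-miR-222-3p: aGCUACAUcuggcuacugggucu
mmu-miR-221-5p: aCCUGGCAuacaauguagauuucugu
mmu-miR-1928: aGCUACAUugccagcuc

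All 3 members had an entry among the 1679 mature names of that table. The 3p mates are 23 bases each in RefSeq and share their first 8 bases, and without gaps they have the same base at 11 positions. miR-221-3p lies at chrX:19146307-19146329, miR-222-3p at chrX:19146901-19146923 and the 26-base miR-221-5p at chrX:19146344-19146369, all on the minus strand. miR-1928 shares its first 10 bases with miR-221-3p, and it had 0 counts in all 9 libraries. A count of 0 allows up to 3 counts, or 0.000358% of the smallest library.

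The hairpins are shown with the mature arms listed in RefSeq in capitals, to place the 5p and 3p arms within mir-221 and to show the single listed arm of mir-222.
mir-221: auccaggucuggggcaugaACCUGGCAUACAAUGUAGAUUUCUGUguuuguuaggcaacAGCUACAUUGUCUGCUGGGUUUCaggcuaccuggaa
mir-222: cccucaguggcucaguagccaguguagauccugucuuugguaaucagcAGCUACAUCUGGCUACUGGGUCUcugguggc

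The gene of mir-221 spans chrX:19146294-19146388 and that of mir-222 spans chrX:19146893-19146971, with 504 bases between them. Both are on the minus strand, so mir-222 comes first in the direction of transcription. No other GENCODE M21 gene overlaps either hairpin. The nearest is Gm14636, a processed transcript on the same strand that ends 10010 bases away, so both hairpins are intergenic in this annotation.

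The smallest library, control 5, held 837817 mature miRNA counts and the largest, high-fat 2, held 3897109. Milk epithelium markers held 42.6% to 48.0% of the control counts and 44.7% to 47.7% of the high-fat counts. That list was chosen with earlier results of these data known and holds very abundant names. One is miR-146b-5p, at a mean of 205263 CPM, which is also on the inflammation list. The share is therefore not a measure of the fraction of epithelial cells. Markers of endothelium, a cell type rich in miR-221 and miR-222, held 0.000643% to 0.00220% and 0.00105% to 0.00291%. miR-126a-3p had 4 to 46 counts and miR-126a-5p 0 to 25 in any library. Leukocyte markers held 0.0356% to 0.0762% of control counts, 1.14% in high-fat library 1, 0.287% in high-fat library 3, and 0.00777% and 0.0251% in high-fat libraries 2 and 4. In bulk samples such as these, fewer cells of a type and less RNA per cell cannot be told apart.

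miR-221-3p was the most abundant member. Control libraries 1 to 5 gave 3458, 2001, 6531, 3033 and 2691 counts of it, and high-fat libraries 1 to 4 gave 4700, 6777, 3049 and 3165. In CPM, counts brought to a common library size by trimmed mean of M values, these were 1990, 1635, 2366, 1935 and 3197 in control and 1852, 1788, 1543 and 1717 in high-fat milk. Control library 5 was the highest and high-fat library 3 the lowest, and 3 of the 4 high-fat libraries lay within the control range. Its rank by count among all names of a library was between 40 and 53.

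miR-222-3p, its cluster mate, had 1088, 664, 2197, 951 and 875 counts in control and 1495, 1805, 914 and 899 in high-fat libraries. In CPM, controls 1 to 5 were at 626, 543, 796, 607 and 1040, and high-fat dams 1 to 4 at 589, 476, 463 and 488. High-fat libraries 2, 3 and 4 lay below all 5 controls, and high-fat library 1 lay among them. As a share of counts, the highest control was library 5 at 0.104% (95% Wilson interval 0.0977% to 0.112%) and the lowest high-fat value was library 3 at 0.0452% (0.0424% to 0.0482%). Such intervals cover counting error only. Its rank by count within a library was 64 to 86.

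miR-221-5p, the passenger arm, was far scarcer. It had 71, 36, 152, 91 and 33 counts in control and 134, 136, 91 and 55 in high-fat libraries. In CPM, controls were at 40.9, 29.4, 55.1, 58.0 and 39.2, high-fat dams at 52.8, 35.9, 46.1 and 29.8, and every high-fat value lay inside the control range. Its rank within a library was 152 to 194.

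The opposite arm of mir-222, miR-222-5p, is also named in the table but is not a member and did not pass the filter. It had 3 to 13 counts per library. Its mean was 4.63 ± 2.47 CPM in control milk (SD, n = 5). High-fat milk had 3.45 ± 2.15 CPM (SD, n = 4). The order of levels was therefore miR-221-3p, miR-222-3p, miR-221-5p and miR-222-5p in every library, and no neighbours in that order overlapped. The lengths of the counted reads were not analysed here, and how well each sequence is captured by adapter ligation was not tested.

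**Figure D1:**
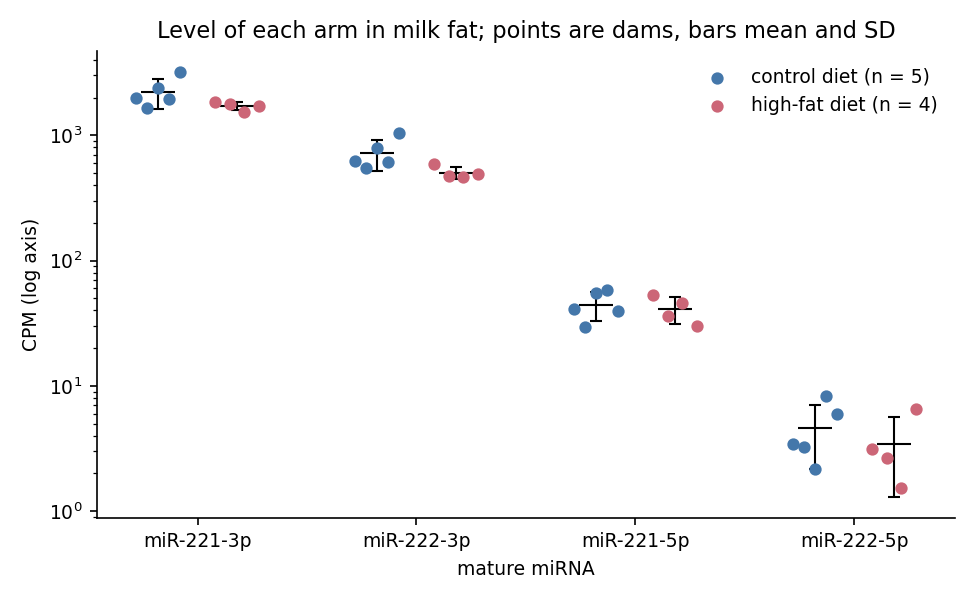
Level in CPM on a log axis of the 4 named arms of both hairpins, with 1 point per dam, a horizontal mark for the mean and bars for the SD (control n = 5, high-fat n = 4). The 3p arms lie at 463 to 3197 CPM, miR-221-5p at 29.4 to 58.0 CPM and miR-222-5p at 1.52 to 8.29 CPM.

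The diet comparison asked whether the members differ between milk of control and high-fat dams. By limma-voom none of the 3 members had an adjusted p below 0.05, and neither did any other tested name (0 of 312, 0%). By the same fit 32 names had an unadjusted p below 0.05, and limma-trend, another fit, called 2 names, neither of them a member. All 3 fold changes were below 0, with a median of -0.33 on the log2 scale, against a median of 0.00 over all tested names, of which 158 were above and 154 below 0. The members share a locus and are not independent measurements.

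miR-222-3p had the log2 fold change farthest from 0 of the 3, while in CPM miR-221-3p differed more. Controls averaged 722 ± 201 CPM and high-fat milk 504 ± 57.7 CPM, and with an adjusted p of 0.436 by limma-voom this difference did not pass. The log2 fold change was -0.48 ± 0.20 (SE), with a 95% interval of -0.91 to -0.04 that is not adjusted for the number of names. Its unadjusted limma-voom p was 0.0340, and 22 names had a smaller one. It made up 0.0723% ± 0.0205 of control counts, against 0.0507% ± 0.00892 in high-fat milk, and the two-sided exact permutation test of this share gave p = 0.0476. That p was above 0.05 when any 1 library other than high-fat library 1 was left out, and the difference then ran from -0.0264 to -0.0136 percentage points. The smallest p this exact test can reach with 9 libraries is 0.0159, and it is larger when a library is left out. A p above 0.05 there need not mean a smaller difference. High-fat library 1, the highest of its diet for miR-222-3p, also held the most leukocyte counts. High-fat library 3, next in leukocyte share, had the lowest miR-222-3p share of the 9 libraries. Without high-fat libraries 1 and 3, left out after their leukocyte counts were seen, the log2 fold changes were -0.50 for miR-222-3p, -0.26 for miR-221-3p and -0.38 for miR-221-5p.

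miR-221-3p averaged 2225 ± 603 CPM in controls, against 1725 ± 133 CPM in milk of high-fat dams. Its log2 fold change was -0.33 ± 0.19 (SE, 95% interval -0.74 to 0.08), with an adjusted p of 0.621 by limma-voom. Without control library 5, the highest for both 3p arms, the log2 fold change was -0.20 for miR-221-3p and -0.35 for miR-222-3p. The SD of miR-221-3p between control dams was wider than that between high-fat dams, and control library 5 supplied the top of that range.

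miR-221-5p averaged 44.5 ± 11.9 CPM in controls, against 41.1 ± 10.3 CPM in milk of high-fat dams. The log2 fold change was -0.16 ± 0.26 (SE, 95% interval -0.74 to 0.43), with an adjusted p of 0.836 by limma-voom. Leaving out 1 library moved it from -0.29 (without high-fat library 1) to -0.03 (without control library 3). The interval holds the fold changes of both 3p arms. Summed, the 3 members took 0.217% to 0.430% of the counts of a control library and a median of 0.220% in high-fat libraries. Their mean difference was -0.0719 percentage points (two-sided exact permutation p = 0.111), and without control library 5 it was -0.0394. Exact permutation tests of diet were made on shares, levels and ratios of the cluster, more than are printed here, and none of their p-values is adjusted.

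**Figure D2:**
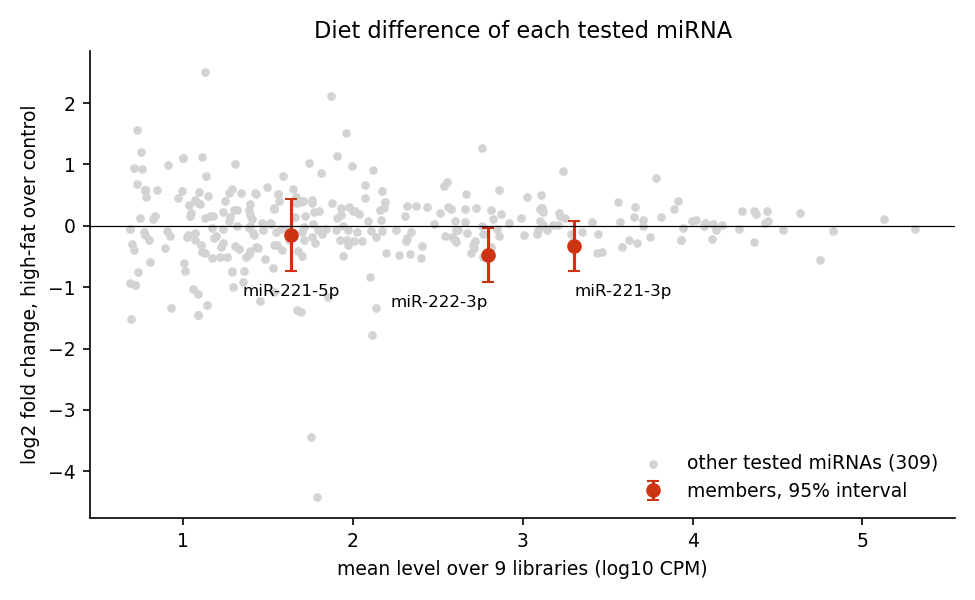
Log2 fold change of high-fat over control milk against mean level (log10 CPM) for the 312 tested miRNAs, with the 3 members in red and their 95% intervals. All 3 members lie below 0 and inside the scatter of the other names, and only the interval of miR-222-3p, -0.91 to -0.04, leaves out 0.

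The cluster mates were then compared within each library, where scaling cancels. There were 3.18, 3.01, 2.97, 3.19 and 3.08 counts of miR-221-3p per count of miR-222-3p in controls 1 to 5, against 3.14, 3.75, 3.34 and 3.52 for high-fat dams 1 to 4. High-fat libraries 2, 3 and 4 lay above all controls, and high-fat library 1 lay within their range. Put as a share of both 3p arms, miR-222-3p averaged 24.5% ± 0.579 over control libraries (SD, n = 5), against 22.6% ± 1.32 over high-fat ones (SD, n = 4). The lowest share was that of high-fat library 2, at 21.0% (95% Wilson interval 20.2% to 21.9%), and the highest that of control library 3, at 25.2% (24.3% to 26.1%).

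On the log2 scale the mate ratio averaged 1.62 ± 0.05 for controls and 1.78 ± 0.11 for high-fat dams. The difference was 0.15 (two-sided exact permutation p = 0.0476). This p was above 0.05 when any 1 library other than high-fat library 1 was left out, where the difference ran from 0.11 to 0.17. Without high-fat library 1 it was 0.20 (exact permutation p = 0.0357). Leaving out a library also raises the smallest p this test can reach. A p above 0.05 there need not mean a smaller difference. limma fitted over 35 pairs of neighbouring hairpins gave a difference of 0.15 ± 0.15 (SE) with an adjusted p of 0.617, so the mate ratio did not pass there. That fit called 3 of the 35 pairs (8.57%), which were mir-141 with mir-200c, mir-503 with mir-322 and mir-542 with mir-503, named here after their values were seen. Its standard error borrows from the spread of the other pairs, whose SDs were larger. High-fat library 2, with the highest mate ratio, was also the deepest library, while control library 3, the deepest control, had the lowest ratio. The high-fat libraries with the most leukocyte counts, 1 and 3, had the lower mate ratios of their diet. The part of depth and of leukocyte miRNAs in the mate ratio was not tested.

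**Figure D3:**
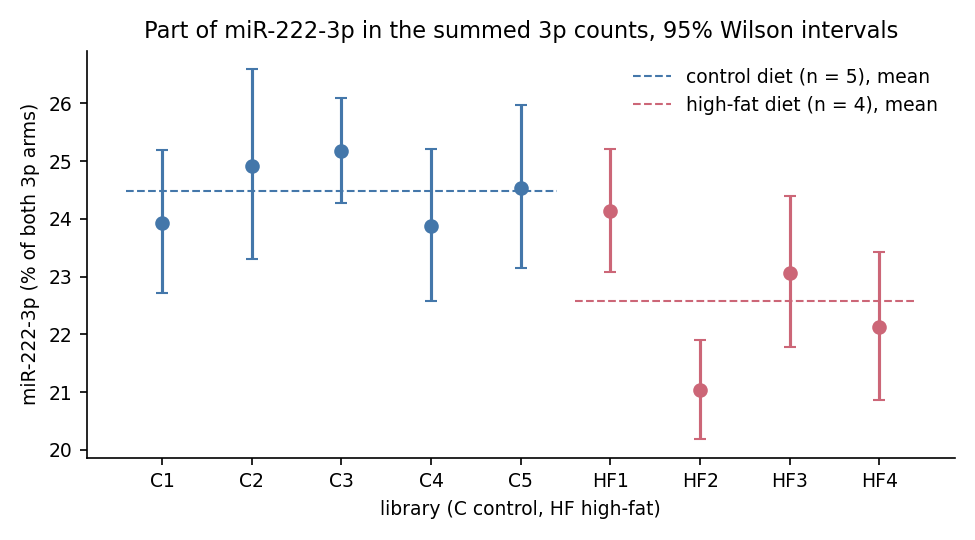
Share of miR-222-3p in the summed counts of miR-221-3p and miR-222-3p for each library in percent, with 95% Wilson intervals and the mean of each diet as a dashed line. Controls sit between 23.9% and 25.2%, and high-fat libraries between 21.0% and 24.1%.

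Across dams, the levels of the mates varied together. Over the 9 libraries, Pearson's r of log2 CPM between miR-221-3p and miR-222-3p was 0.97 (exact permutation p 0.000562, adjusted 0.00169 over the 3 pairs of members) and Spearman's rho was 0.93 (exact permutation p 0.000750, adjusted 0.00225). Without control libraries 3 and 5, the farthest from the median of miR-221-3p, r was 0.80 with an exact permutation p of 0.0405 over 7 libraries. On deviations from the diet means r was 0.96. Leaving out each library in turn gave r from 0.92 to 0.98. Of the 311 other tested names, miR-222-3p had the highest r with miR-221-3p, and the reverse also held. All these levels are relative to the same library totals.

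The arms of mir-221 did not show such a relation. Between miR-221-3p and miR-221-5p r was 0.23 (exact permutation p 0.570, adjusted 0.570) and rho 0.42 (exact permutation p 0.270, adjusted 0.359). Without control libraries 3 and 5 r was 0.42, and without control library 5 alone it was 0.55. miR-221-5p ranked 110 of 311 names by its r with miR-221-3p. Between miR-221-5p and miR-222-3p r was 0.30 (exact permutation p 0.437, adjusted 0.570) and rho 0.35 (exact permutation p 0.359, adjusted 0.359), and without control libraries 2 and 4 r was 0.31. Without control library 5 it was 0.58. Whether these correlations differ from that of the mates was not tested. miR-221-5p had only 33 to 152 counts per library, and the part of counting error in its correlations was not tested either.

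**Figure D4:**
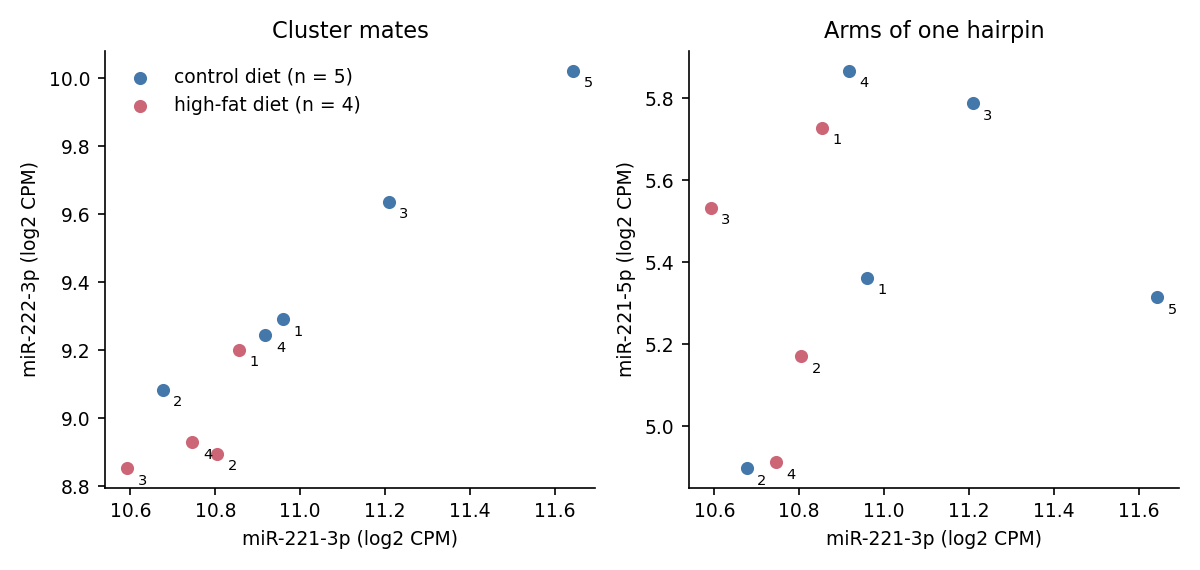
Log2 CPM of miR-222-3p (left) and of miR-221-5p (right) against that of miR-221-3p, with 1 numbered point per dam coloured by diet. The mates line up from high-fat library 3 to control library 5 (r 0.97), while the arms of mir-221 scatter (r 0.23).

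The closeness of the mates was set beside other clusters as a description. Neighbouring hairpins on 1 strand with at most 10000 bases between them, both with a tested main arm, gave 35 pairs. Some of these share a hairpin, and for some only a scarcer arm could be assigned to 1 hairpin. The log2 mate ratio of mir-221 and mir-222 had an SD within diets of 0.08, the lowest of the 35, and their r was the highest. The median SD was 0.45 and the median r 0.18. Next by SD and by r came mir-93 and mir-106b, from the intron of a replication gene, with an SD of 0.13 and an r of 0.73. By r, let-7e and mir-125a followed, with an r of 0.66 and an SD of 0.45. By SD, mir-429 and mir-200a of the epithelial miR-200 family followed, with an SD of 0.18 and an r of 0.32. Of the 16 pairs with both mates at 100 CPM or more, none had a smaller SD or a higher r than mir-221 and mir-222. Counting error alone would give mir-221 and mir-222 an SD of 0.05. For pairs with a scarce arm it is larger, up to 0.79 for mir-30c-1 and mir-30e, and it adds to the median SD.

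**Figure D5:**
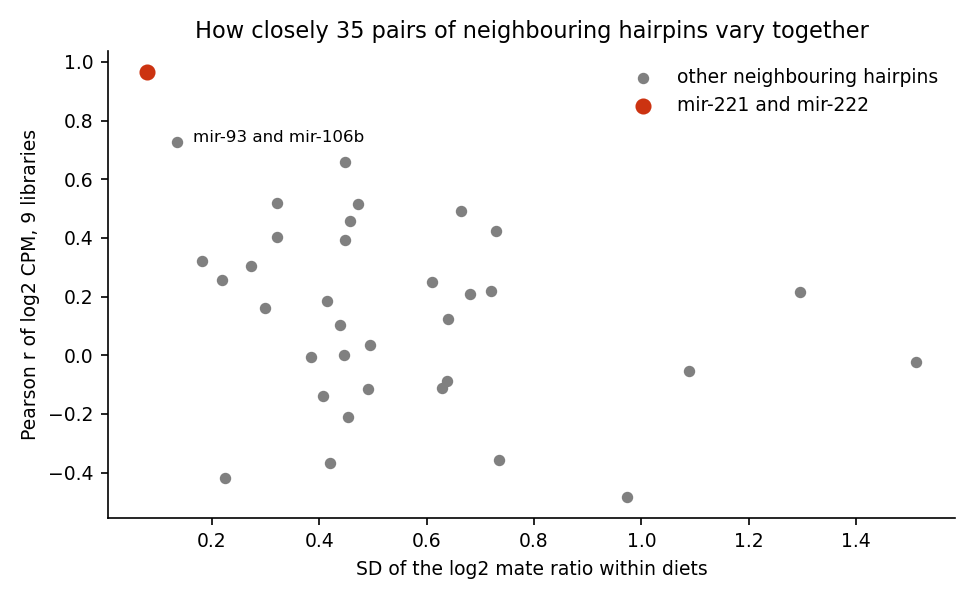
Pearson's r of log2 CPM over 9 libraries against the SD of the log2 mate ratio within diets, for 35 pairs of neighbouring hairpins. mir-221 and mir-222 (red) lie at an SD of 0.08 and r of 0.97, apart from the other pairs, of which mir-93 and mir-106b come closest.

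The balance of arms in mir-221 favoured the 3p arm in every library. There were 48.7, 55.6, 43.0, 33.3 and 81.5 counts of the 3p arm per count of the 5p arm in control and 35.1, 49.8, 33.5 and 57.5 in high-fat libraries. Control library 5 had the most unequal arms and the diets overlapped. As a share of both arms, miR-221-5p made up 2.04% ± 0.628 in control and 2.34% ± 0.588 in high-fat milk. In mir-222, the 5p arm made up 0.667% ± 0.403 and 0.682% ± 0.436 of both arms.

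The log2 ratio of 5p to 3p in mir-221 averaged -5.63 ± 0.47 for controls and -5.41 ± 0.38 for high-fat dams. The difference was 0.22 ± 0.33 (SE) with an adjusted p of 0.925 by limma over 161 hairpins, of which 1 (0.621%), mir-23b, named after its values were seen, was called, and the two-sided exact permutation p was 0.524. Without control library 5 the difference was 0.05. Of the 161 hairpins, 77 had more unequal arms, and the 3p arm was the main one in 68. The median size of the log2 arm ratio was 5.32, so the arm balance of mir-221 was near the middle. Its SD within diets, 0.43, was larger than the 0.18 that counting error gives at this depth.

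The spread between dams was below the middle of the table for all 3 members. The SD of log2 CPM within diets was 0.29 for miR-221-3p, 0.30 for miR-222-3p and 0.38 for miR-221-5p, against a median of 0.44 over the tested names. A smaller SD was found for 79, 90 and 131 names. By mean CPM miR-221-3p ranked 45, miR-222-3p 75 and miR-221-5p 183 among the tested names. The 3p mates thus lay above the median level of 64.1 CPM and miR-221-5p, at 43.0 CPM, below it. The part of level in these SDs was not tested.

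The names whose levels followed the members most closely over the 9 libraries, the members themselves left out, are given by Pearson's r as a description. For miR-221-3p they were let-7d-5p (r 0.88, rho 0.63), miR-200c-3p (r 0.87, rho 0.47), miR-3473a (r 0.86, rho 0.72) and miR-532-5p (r 0.83, rho 0.68). For miR-222-3p they were miR-3470a (r 0.86, rho 0.78), miR-2137 (r 0.85, rho 0.85), miR-1981-5p (r 0.85, rho 0.67) and again miR-200c-3p (r 0.83, rho 0.50). For each of these names rho was lower than r, only just so for miR-2137, and picking names by r favours that. Control library 5 was the highest for both 3p arms, and its part in these values was not tested. The names with the lowest r were miR-18a-5p (r -0.94, rho -0.88) and miR-29b-3p (r -0.93, rho -0.78) for miR-221-3p, and miR-200c-5p (r -0.92, rho -0.80) and miR-140-5p (r -0.89, rho -0.77) for miR-222-3p. miR-200c-3p was thus among the highest names by r for both 3p mates, though its rho was 0.47 and 0.50. Its opposite arm, miR-200c-5p, was among the lowest for miR-222-3p, at a mean of 7.00 CPM, near the 5.25 CPM of the filter.

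The 5p arm had other neighbours. miR-221-5p was followed most closely by miR-26a-2-3p (r 0.80, rho 0.83), miR-183-3p (r 0.76, rho 0.65), miR-351-5p (r 0.74, rho 0.58) and miR-421-3p (r 0.71, rho 0.70). Its lowest values were those of miR-29a-5p (r -0.81, rho -0.80) and miR-193a-3p (r -0.80, rho -0.83). No name was on the lists of both miR-221-5p and a 3p mate. All these values share libraries and scaling, and each was picked from over 300 names.

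Other miRNAs reported to repress Esr1 were set beside the members. Of the 5 listed, 3 were tested, 2 of them above and 1 below 0, and none passed limma-voom. miR-18a-5p, of the miR-17-92 cluster, had a log2 fold change of 0.39 ± 0.24 (SE), and the abundant miR-22-3p one of 0.28 ± 0.31. miR-193b-3p had one of -0.31 ± 0.19. miR-206-3p, a muscle miRNA, had 0 counts in all libraries, and miR-18b-5p had 3 counts in all.

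Lists of other cell types and functions gave the setting of the members. The lists overlap and are not separate measurements. miR-146b-5p is on the milk epithelium and inflammation lists, and miR-155-5p on the leukocyte and inflammation lists. miR-200b-3p and miR-200c-3p are on both epithelial lists. Of the obesity list, miR-143-3p is also a stromal marker and miR-193b-3p is also on the Esr1 list. The epithelial miR-200 family had 3 of 5 fold changes above 0 and a median of 0.15, and milk epithelium markers 1 of 5 above 0 and a median of -0.06. Of the 6 inflammation-induced miRNAs, 4 were below 0 with a median of -0.25, and of the 10 obesity and adipocyte miRNAs 6 were below 0 with a median of -0.06. All 5 leukocyte markers were above 0, with a median of 0.97 and SEs from 0.87 to 2.23. High-fat libraries 2 and 4 nevertheless held a smaller leukocyte share than any control. Both endothelial markers were also above 0, at a median of 0.95. Of the stromal markers 2 of 3 tested and of the red cell markers 2 of 2 tested were above 0, with medians of 0.01 and 0.29. The red cell share was 0.0650% in high-fat library 3 alone. Controls had 0.00227% to 0.0158%, and the remaining 3 high-fat dams 0.00201% to 0.00971%. By limma-voom no member of any list had an adjusted p below 0.05.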

How the data were processed

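Per the labels' protocols, RNA of PBS-washed milk fat went through a column kit and the NEXTflex small RNA kit to a HiSeq2500. Per the submitters' processing notes, cutadapt 1.9.1 and build GRCm38 were used. An aligner, a counter and a miRBase version were not given in the sources used here. Raw read counts were deposited by the authors per precursor and mature name, 2059 rows, with comma separators in 833 cells. These cells were not read as plain numbers by a unit check, so limma-voom was used in place of a count model. The sources name no merging of PCR copies.

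Commas were removed and the highest row per name and library was kept. A name was tested if it had 5.25 CPM (10 counts in a library of median size) in 4 libraries and 15 counts in total, and the rest held 0.0470% of counts. Library sizes were scaled by trimmed mean of M values (30% and 5% trimmed), written out in R 4.3.3. limma 3.58.1 gave two-sided tests, Benjamini-Hochberg adjusted over 312 names. Ratios used a pseudocount of 0.5, and arm pairs needed 5 summed counts per arm. Exact permutation tests doubled the smaller tail. The fits were tested on simulated data with changes larger than those of the members, so that test does not bear on differences of this size. No library repeated another of its diet (chi-square per degree of freedom at least 50.2).

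The 3 members, the lists and the tests were chosen with earlier results of these data known. Named miRNAs are the members, the other arm, names sharing the seed, and, per member, the 4 tested names with the highest and the 2 with the lowest Pearson's r. The limma fit over neighbouring pairs and the fits without high-fat libraries 1 and 3 were added after seeing the data.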

Additional observations from a re-analysis of the deposited data

Results flagged for a closer look

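A search of 14 sets of values, each a measure in 1 diet, found 1 with a single library well apart. Chance alone gives this in about 1 of 20 such sets, so 1 among 14 sets is about what chance gives. The share of miR-222-3p in high-fat library 1 was 0.0640% of counts, and its gap to the next high-fat library took up 0.895 of the range of the 4 high-fat libraries. This library also held the most leukocyte marker counts, 1.14%. High-fat library 3, next at 0.287%, had the lowest miR-222-3p share of all libraries, 0.0452%. The part of leukocyte miRNAs in these values was not tested.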

How the results depend on the processing

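The fold changes of the 3 members stayed below 0, and none passed limma at an adjusted p of 0.05, under every scaling, filter, weighting and single-library omission tried. Without the count filter, the median of all names tested was -0.21. For miR-222-3p the exact permutation test on log2 CPM gave -0.49 with an unadjusted p of 0.0317. The number of miRNAs called, 0, became 4 without the count filter, 2 by limma-trend, 2 with library quality weights, 3 with the replicate block, and 0 to 4 when 1 library was left out, with 4 only without control library 5. Replicate numbers 1 to 4 recur in both diets but name different dams, and deviations of same-numbered dams correlated from -0.16 to 0.20. Controls 1 and 3 correlated best with their own number, and controls 2 and 4 did not. The replicate block put the log2 fold change of miR-222-3p at -0.35 (limma-voom, adjusted p = 0.614). Control library 5 has no high-fat library of its number, so the block takes it out of the diet estimate. Leaving out control library 5 without a block also gave -0.35, so these are not separate alternatives.

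Leaving out 1 library gave share differences of -0.000827 to 0.000123 percentage points for miR-221-5p, reversed without control library 4 or high-fat library 4, and of -0.0264 to -0.0136 for miR-222-3p, and mate ratio differences of 0.11 to 0.20. Of the 9 omissions, 8 took the exact p of the miR-222-3p share and of the mate ratio above 0.05, where fewer libraries also raise the smallest p. Without high-fat libraries 1 and 3 these were -0.0256 and 0.24, and the arm ratio difference reversed to -0.10; the cause was not tested. By limma over neighbouring pairs the mate ratio difference was 0.15, and 0.15 with the replicate block. The relation of the 3p mates held under all 13 alternatives. Of the members, miR-221-5p had the fewest counts, 33 to 152 per library, and so the largest counting error.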
